A study of Schizosaccharomyces pombe with 8 samples.

Results

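The 3 phosphate-acquisition genes of fission yeast (Schizosaccharomyces pombe), pho1, pho84 and tgp1, were examined for histone H3, H3 acetylated on lysine 14 (H3K14ac) and acetylated histone H4 (H4ac). They were chosen by identifier (SPBP4G3.02, SPBC8E4.01c and SPBC1271.09) because transcription of an upstream noncoding RNA represses each of them in phosphate-rich medium, and all 3 lie on chromosome II. They are 3 of the 5129 protein-coding gene rows of the table. To them were added the noncoding rows within 3000 nt upstream, which were 2 of 3647 noncoding rows.

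Chromatin immunoprecipitation and sequencing (ChIP-seq) had been performed on exponentially growing wild-type cells in YES, a rich medium based on yeast extract. The strain, YAM2394, is of mating type h+ and carries the auxotrophic alleles leu1-32, ura4-D18 and ade6-M210, which all 6 libraries share. This strain is the one in the labels and methods, whereas a figure legend names another wild-type strain of the opposite mating type, so the genotype rests on the labels. Formaldehyde-fixed chromatin was precipitated with an antibody against H3, against H3K14ac or against H4 acetylated on any of 4 lysines, with 2 libraries per antibody that the study describes as biological replicates. All 6 libraries came from the same strain and condition, so the comparisons are between antibodies and between regions, and the repression of the 3 genes was neither varied nor measured here. The 2 Input libraries (chromatin before precipitation) that the labels list were not analysed here.

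The phosphate genes serve as models of repression by transcription. pho1 encodes a secreted acid phosphatase, pho84 an inorganic phosphate transporter and tgp1 a transporter of glycerophosphodiesters. When phosphate is plentiful, RNA polymerase II starts upstream of each gene and runs across its promoter, making the long noncoding RNAs prt (upstream of pho1), prt2 (upstream of pho84) and nc-tgp1. When phosphate is scarce this upstream transcription drops and the activator Pho7, a zinc-cluster protein, switches the genes on. Acetylation of H3 on lysine 14 and of the H4 tail is placed by acetyltransferases of the Gcn5, Mst2 and NuA4 complexes and is usually richest around transcribed promoters.

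The table draws these loci unevenly. pho84 (chrII:4444125-4446200, plus strand, 2076 nt) and pho1 (chrII:4446373-4449053, plus strand, 2681 nt) follow one another with 172 nt between their rows. The pho1 row has 1184 nt before the coding exon (chrII:4447557-4448918), which is sequence of prt: in the RefSeq annotation, prt starts 14 nt before the row and runs on to the end of the pho1 coding sequence, and the pho1 mRNA starts 1133 nt into the row. Of 2085 single-exon genes with at least 300 nt outside the coding exon, 134 had a 5′ part this long or longer. prt2 corresponds to the row SPBC8E4.02c (chrII:4442574-4444191, plus strand, 1618 nt), which the table types as a protein-coding gene and RefSeq lists as a synonym of the lncRNA prt2. It is called the prt2 row below. It overlaps the pho84 row by 67 nt, and the RefSeq prt2 runs 1779 nt further, to the end of the pho84 coding sequence.

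tgp1 (chrII:350692-352369, minus strand, 1678 nt) has a row that covers its coding sequence only, in 2 exons where RefSeq has 1. The rule for noncoding rows found none upstream of pho84 or pho1 and 2 upstream of tgp1, SPNCRNA.1343 (chrII:354031-355573) and the Xrn1-sensitive unstable transcript XUT0988 (chrII:354361-355549). Both are on the plus strand, opposite to tgp1, and begin 1661 and 1991 nt from the tgp1 row. RefSeq describes SPNCRNA.1343 as the divergent partner of nc-tgp1. XUT0988 lies wholly inside it (1189 nt), so the 2 rows share tags and are not separate observations. nc-tgp1 itself (1900 nt) has no row of its own. It overlaps SPNCRNA.1343 by 204 nt, and most of it lies in the stretch between the tgp1 row and SPNCRNA.1343, which was not measured in any row.

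The DNA that these upstream transcripts cross is shown first, because the promoter of each gene is what the noncoding RNA runs over. The 250 bases before the RefSeq mRNA start were taken from the ASM294v3 sequence: chrII:4443851-4444100 (plus strand) for pho84, chrII:4447256-4447505 (plus strand) for pho1 and chrII:352412-352661 (minus strand) for tgp1. Capitals mark the Pho7 recognition element, a 12-base element, in pho1 and tgp1, and TATAAA in pho84.
pho84 promoter: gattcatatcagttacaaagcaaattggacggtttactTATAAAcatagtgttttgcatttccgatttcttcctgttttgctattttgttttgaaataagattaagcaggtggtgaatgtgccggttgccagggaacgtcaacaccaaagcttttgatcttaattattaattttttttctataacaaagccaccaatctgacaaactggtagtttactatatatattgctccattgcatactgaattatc
pho1 promoter: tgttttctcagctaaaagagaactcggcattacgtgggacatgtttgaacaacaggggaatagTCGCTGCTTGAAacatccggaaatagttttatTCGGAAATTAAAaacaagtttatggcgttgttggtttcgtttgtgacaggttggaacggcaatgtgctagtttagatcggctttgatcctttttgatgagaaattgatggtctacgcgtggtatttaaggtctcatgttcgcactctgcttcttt
tgp1 promoter: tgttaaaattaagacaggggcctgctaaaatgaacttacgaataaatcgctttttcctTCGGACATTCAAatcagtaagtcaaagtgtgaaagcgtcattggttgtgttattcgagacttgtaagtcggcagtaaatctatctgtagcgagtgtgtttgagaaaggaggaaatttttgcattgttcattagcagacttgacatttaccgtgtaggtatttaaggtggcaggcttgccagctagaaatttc
The element was searched on both strands. In all, 2 copies were found for pho1, with 238 and 206 bases from their first base to the start codon, and 1 copy for tgp1, at 234 bases. The pho84 window held no match and 1 TATAAA, with 363 bases from its first base to the start codon. It lies near the upstream end of the window, away from the mRNA start. Among 5106 promoters of the same length, 99 (1.94%) held the Pho7 element and 44.4% held TATAAA. A match of letters is a description and not a measured binding site. The pho84 window lies inside the prt2 row and the pho1 window inside the 5′ part of the pho1 row, so tags over these promoters are counted in those rows, whereas the tgp1 window lies in no row.

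prt also carries the recognition motif of Mmi1, an RNA-binding protein that directs transcripts to nuclear degradation, with the core TNAAAC. A stretch of 60 bases (chrII:4446747-4446806, plus strand) holds 3 copies, in capitals.
prt stretch: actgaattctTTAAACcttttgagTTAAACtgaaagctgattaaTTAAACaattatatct
The sense strand held 4 copies in the 1184 nt of the pho1 row before the coding exon (3.38 per kb). It held 6 in the prt2 row (3.71 per kb) and 6 in nc-tgp1 (3.16 per kb), against 1.79 per kb over 5118 gene rows. Of those gene rows, 7.64%, 5.30% and 9.87% had at least as high a rate as these stretches, in the same order.

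Deposited values are densities, that is, tags divided by the length of a row in nt, scaled by 1 factor per library and divided neither by Input nor by H3. A log2 ratio of 0 therefore marks a row with the same scaled density of both signals, at whatever level, and says nothing of absolute amounts. A density is an average over all cells, so a mark in fewer cells and less of it in each cannot be told apart. Tags recovered from the densities summed over gene rows to between 14014219 and 15214393 per library, with medians of 2325 to 2608 per gene. The 3 genes held between 1471 and 3144 tags per library. Sequences of 50 bases were unique in the genome over 100% of every row examined except pho84 (95.2%), where uniquely mapped reads can undercount. Replicates correlated with Pearson's r of 0.992 to 0.996 across genes, which are not independent replicates.

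The H3 signal separated tgp1 from the other 2 genes. Over the pho1 row, H3 density was 0.834 and 0.804 tags per nt in replicates 1 and 2, and over pho84 it was 0.959 and 0.886. Over tgp1 it was 1.60 and 1.61. Over whole rows, both libraries placed pho1 lowest, pho84 next and tgp1 highest, with no overlap between genes. In the coding exons the order of pho1 and pho84 was reversed. H3 was 1.20 and 1.18 tags per nt in the pho1 exon and 1.07 and 0.988 in the pho84 exon. Against the gene median of 1.24 tags per nt, 8.21% of gene rows had less H3 than pho1 and 13.0% less than pho84, but 96.4% less than tgp1. These are levels per nt and describe the rows as drawn, of which the pho1 and pho84 rows include untranslated and noncoding sequence and the tgp1 row does not.

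H3K14ac was low on the linked pair. Its density was 0.574 and 0.597 tags per nt on pho1, 0.665 and 0.688 on pho84 and 1.24 and 1.34 on tgp1. Only 3.28% and 6.98% of genes had less H3K14ac than pho1 and pho84, whereas tgp1 sat near the middle (54.1% of genes below). H4ac followed the same order, with 0.842 and 0.873 tags per nt on pho1, 0.932 and 0.957 on pho84 and 1.67 and 1.76 on tgp1. These H4ac levels had 16.2%, 23.7% and 81.0% of genes below them. In each gene, both H3K14ac libraries were lower than both H4ac libraries.

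**Figure D1:**
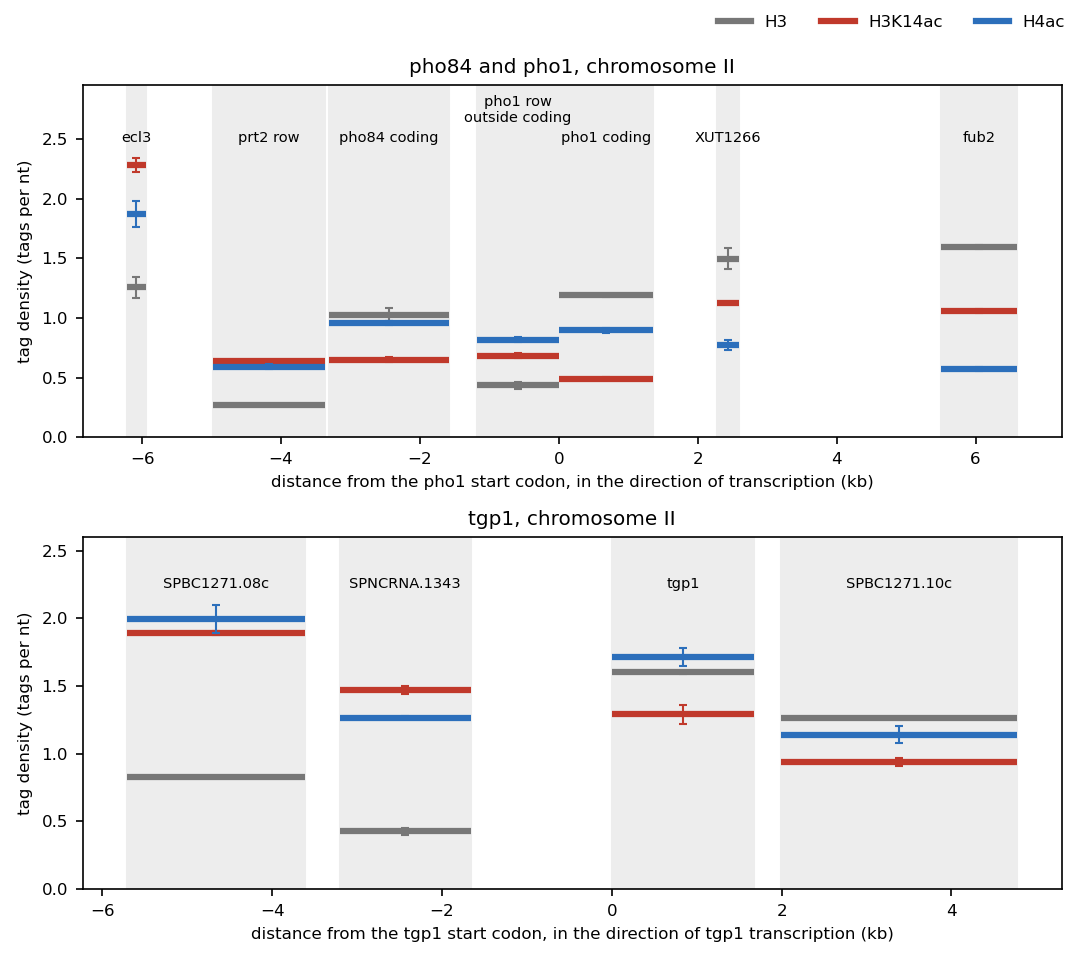
Mean tag density (tags per nt) of H3 (grey), H3K14ac (red) and H4ac (blue) along the pho84–pho1 locus (top) and the tgp1 locus (bottom), against distance in kb from the start codon. Each horizontal line spans the row it averages, error bars are the SD of 2 replicates, and the part of the pho1 row outside the coding exon is drawn over its 5′ stretch, which is 89.8% of it. H3 is the lowest of the 3 signals in the prt2 row, in the noncoding part of the pho1 row and in SPNCRNA.1343, and the highest in the coding exons of pho84 and pho1.

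The relation of each mark to H3 was then tested (limma on log2 density, Benjamini-Hochberg adjustment over 5128 genes). H3K14ac was below H3 in all 3 genes. The log2 ratio was -0.48 ± 0.038 (SE, 2 libraries per antibody) for pho1 (0.718-fold, limma adjusted p = 4.43e-07), -0.44 ± 0.041 for pho84 (0.736-fold, limma adjusted p = 1.71e-06) and -0.31 ± 0.039 for tgp1 (0.806-fold, limma adjusted p = 2.08e-05). Such a call was common: 45.9% of genes were called lower and 47.4% higher in this comparison, and 25.3%, 27.1% and 33.5% of genes had a lower ratio than pho1, pho84 and tgp1. The 3 genes thus sat in the lower part of the distribution, above its lower quartile (-0.48).

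Averaged over whole rows, H4ac was close to H3, but the pho1 and pho84 rows each average unlike parts. Log2 H4ac/H3 was -0.41 in the pho1 coding exon, and 0.80 and 0.99 outside it in replicates 1 and 2. For pho84 it was -0.10 in the coding exon, and 0.97 and 1.15 outside it. The log2 H4ac/H3 was 0.07 for pho1 (limma adjusted p = 0.123, approximate 95% interval -0.0087 to 0.140) and 0.03 for pho84 (limma adjusted p = 0.436, interval -0.046 to 0.115), so neither was called. tgp1 was called slightly higher, at 0.10 ± 0.039 (SE, limma adjusted p = 0.0321). In the whole comparison 47.1% of genes were called higher and 45.5% lower, and 52.7%, 51.4% and 54.5% of genes lay below pho1, pho84 and tgp1. The tgp1 call was lost without H3 replicate 1 (adjusted p = 0.0897), H3 replicate 2 (0.0615) or H4ac replicate 2 (0.237), by limma in each case, and the log2 ratio then ranged from 0.060 to 0.105.

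Compared directly, the 2 marks parted in all 3 genes. H3K14ac relative to H4ac was -0.54 ± 0.038 on the log2 scale for pho1 (SE, 0.686-fold, limma adjusted p = 2.04e-06), -0.48 ± 0.041 for pho84 (0.719-fold, limma adjusted p = 7.35e-06) and -0.41 ± 0.039 for tgp1 (0.752-fold, limma adjusted p = 1.33e-05). Calls were again frequent, with 36.6% of genes lower and 32.9% higher, but most were small. Only 53 genes (1.03%) had a lower ratio than pho1, 80 (1.56%) a lower ratio than pho84 and 132 (2.57%) a lower ratio than tgp1. All 3 genes therefore lay below the 5th percentile of all genes, at -0.32, although the density of every signal was higher on tgp1 than on pho1. No test was made of the 3 genes as a set. Among the 133 genes at or below tgp1 in this ratio, 103 had H3K14ac below H3 and 73 had H4ac above H3.

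**Figure D2:**
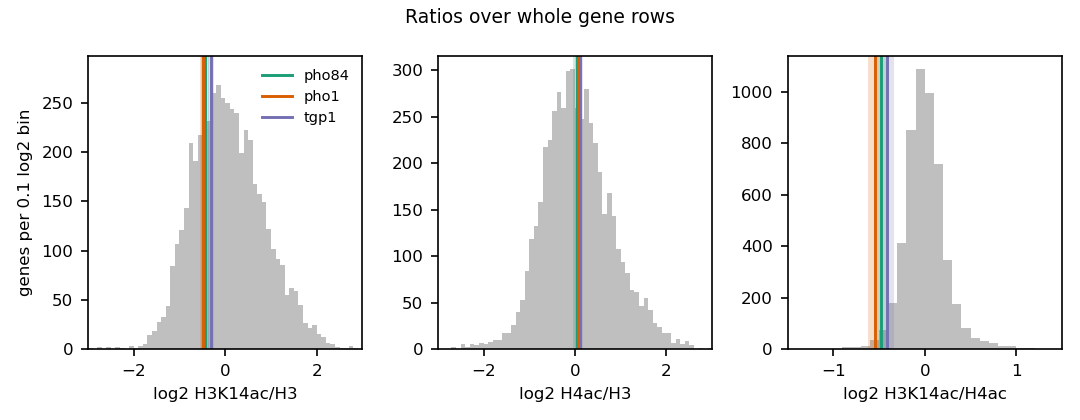
Number of genes per 0.1 log2 bin (grey) for log2 H3K14ac/H3, H4ac/H3 and H3K14ac/H4ac over 5128 gene rows, with pho84 (green), pho1 (orange) and tgp1 (purple) as vertical lines and bands of approximately 95%. The lines fall among the bulk of genes in the first 2 panels and at the low edge in the third, at -0.48, -0.54 and -0.41.

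Because the pho1 row has a long part before its coding sequence, the row was split at the coding exon. RefSeq prt also covers the coding exon, so the split does not separate prt from other sequence. The pho1 coding exon carried 1.20 and 1.18 tags per nt of H3, while the rest of the row carried 0.456 and 0.414. H3K14ac went the other way, with 0.480 and 0.499 tags per nt in the coding exon and 0.671 and 0.699 outside it. H4ac was 0.882 and 0.912 in the coding exon and 0.802 and 0.833 outside. The noncoding part of the row thus held less H3 and more H3K14ac than the coding exon in every library, and slightly less H4ac in both H4ac libraries.

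The same split applied to pho84, whose row has 127 nt before and 230 nt after the coding exon. H3 fell from 1.07 and 0.988 tags per nt in its coding exon to 0.444 and 0.395 outside it. H3K14ac was 0.636 and 0.664 inside and 0.801 and 0.806 outside, and H4ac was 0.943 and 0.971 inside and 0.879 and 0.892 outside. The pattern was that of pho1, over a much shorter stretch. The regions differ in place too, as most of the pho84 stretch lies after the coding exon and 89.8% of the pho1 stretch before it.

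**Figure D3:**
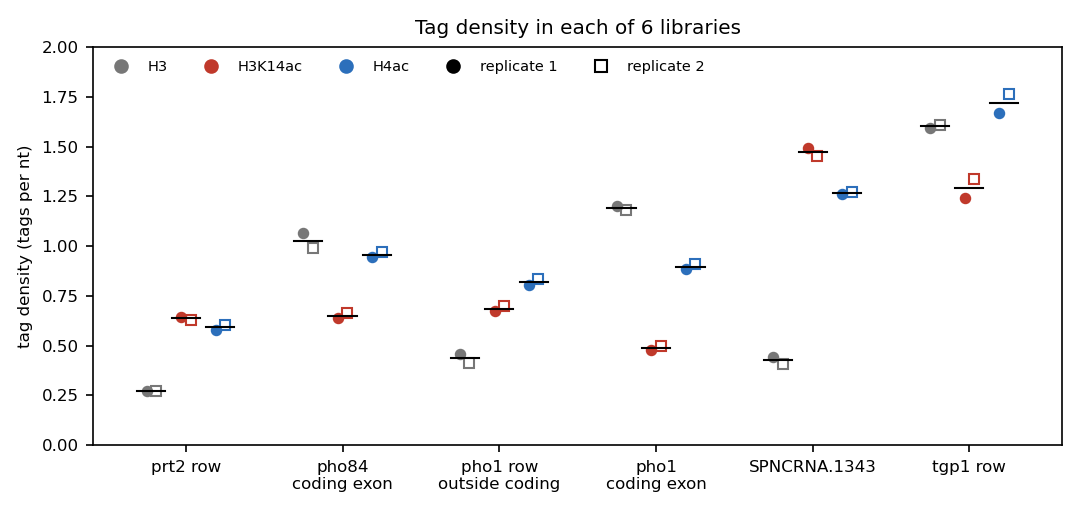
Tag density (tags per nt) in each of the 6 libraries for the coding and noncoding parts of the 3 loci, with replicate 1 as filled circles, replicate 2 as open squares and the mean as a horizontal line. The replicates lie close together against the distances between antibodies, for example 1.20 and 1.18 for H3 against 0.480 and 0.499 for H3K14ac in the pho1 coding exon.

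The difference between the 2 parts of a row was fitted across 2084 single-exon genes, an analysis chosen after the extent of the pho1 row was seen. Outside minus coding exon, log2 H3K14ac/H3 differed by 1.91 ± 0.074 (SE) in pho1 (limma adjusted p = 8.87e-13) and by 1.58 ± 0.070 in pho84 (limma adjusted p = 4.44e-12). For H4ac/H3 the difference was 1.30 in pho1 (limma adjusted p = 1.08e-10) and 1.16 in pho84 (limma adjusted p = 2.10e-10). Neither was unusual among genes, as 73.8% and 78.2% of genes were called higher outside for the 2 marks and the medians were 0.92 and 0.93. For H3K14ac/H3, 84.5% of genes lay below pho1 and 73.1% below pho84. Centring each library on the median difference of these genes removes what most genes share. It lowered the H3K14ac/H3 differences to 1.02 in pho1 and 0.68 in pho84 and the H4ac/H3 differences to 0.38 and 0.24, all still called, while the shares of genes called higher and lower went from 73.8% and 17.8% to 45.0% and 44.2% for H3K14ac/H3 and from 78.2% and 13.2% to 43.2% and 42.9% for H4ac/H3.

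The balance between the marks changed more than in most genes. H3K14ac/H4ac was higher outside the coding exon by 0.61 ± 0.074 (SE) in pho1 (limma adjusted p = 1.13e-05) and by 0.41 ± 0.070 in pho84 (limma adjusted p = 0.000166). Over all genes 26.9% were called higher, the median was -0.029, and 98.0% and 91.9% of genes lay below pho1 and pho84. In the pho1 coding exon itself the ratio was -0.86 ± 0.039 (SE, limma adjusted p = 0.000176 over 10203 coding exons), with only 40 exons (0.392%) lower. It was -0.55 in the pho84 coding exon (limma adjusted p = 0.000541, 3.20% lower) and -0.41 in the first exon of tgp1 (limma adjusted p = 0.00137, 8.00% lower). Of all coding exons, 27.9% were called lower in this ratio.

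**Figure D4:**
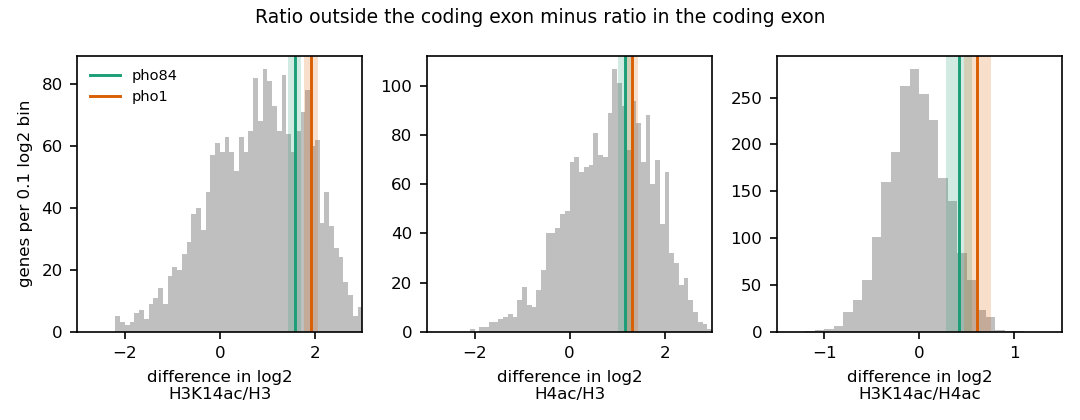
Number of single-exon genes per 0.1 log2 bin (grey, 2084 genes) for the ratio outside the coding exon minus the ratio within it, with pho84 (green) and pho1 (orange) as lines and bands of approximately 95%. The differences of 1.58 and 1.91 in H3K14ac/H3 lie among many genes, and those of 0.41 and 0.61 in H3K14ac/H4ac lie in the upper tail.

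Restricting pho1 to its coding exon moved H3K14ac further below H3 and brought H4ac, which was not called over the whole row, below H3 as well. Log2 H3K14ac/H3 was -1.27 ± 0.039 (SE, limma adjusted p = 5.21e-07) and log2 H4ac/H3 was -0.41 ± 0.039 (limma adjusted p = 7.12e-05), where the whole row gave -0.48 and 0.07. For pho84 the coding exon gave -0.65 (limma adjusted p = 1.71e-05) and -0.10 (limma adjusted p = 0.0934). The first exon of tgp1 gave -0.30 (limma adjusted p = 0.00128) and 0.11 (limma adjusted p = 0.0778), close to its row. The second exon, of only 49 nt and 79 to 129 tags per library, gave -0.59 (limma adjusted p = 0.00188) and -0.28 (limma adjusted p = 0.0490), so H4ac/H3 was called lower there. The exons share tags: in H3 replicate 1 they held 2785 and 129, against 2904 in the whole row. The second exon is therefore not a separate observation. Of all coding exons, 43.3% were called lower for H3K14ac/H3 and 43.0% for H4ac/H3.

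The upstream noncoding rows were poor in H3 and carried both marks above it. H3 density was 0.270 and 0.269 tags per nt in the prt2 row, 0.444 and 0.407 in SPNCRNA.1343 and 0.482 and 0.437 in XUT0988. Only 0.565% of gene rows had less H3 than the prt2 row, and 7.70% of noncoding rows had less than SPNCRNA.1343. The last 2 rows overlapped in their values, as they do in sequence. H3K14ac was 0.642 and 0.631 in the prt2 row, 1.49 and 1.45 in SPNCRNA.1343 and 1.58 and 1.56 in XUT0988. H4ac was 0.579 and 0.605, 1.26 and 1.27, and 1.30 and 1.32 in the same order. In each of these rows all 4 acetylation libraries exceeded both H3 libraries.

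SPNCRNA.1343, the divergent partner of nc-tgp1, had a log2 H3K14ac/H3 of 1.77 ± 0.054 (SE, limma adjusted p = 1.78e-08 over 3646 noncoding rows) and a log2 H4ac/H3 of 1.55 ± 0.054 (limma adjusted p = 4.28e-08). Enrichment of this kind was the rule among noncoding rows, of which 68.4% and 66.7% were called higher for the 2 marks, and 82.9% and 78.8% lay below SPNCRNA.1343. Its H3K14ac/H4ac was 0.22 (limma adjusted p = 0.00899, where 42.3% of noncoding rows were called higher), and this call was lost when libraries were centred on their medians (0.13, limma adjusted p = 0.0590) and without H3K14ac replicate 1 (0.20, limma adjusted p = 0.0586). XUT0988 gave 1.75, 1.49 and 0.26 for the 3 ratios. The size of these values depends on where 0 is set. With each library centred on the median noncoding row, H3K14ac/H3 and H4ac/H3 were 1.17 and 1.04 for SPNCRNA.1343 and 1.15 and 0.98 for XUT0988. In the count-based fit, also scaled on noncoding rows, they were 0.90 and 0.83 for SPNCRNA.1343 and 0.88 and 0.77 for XUT0988. All of these remained called, while the share of noncoding rows called higher and lower went from 68.4% and 25.8% to 51.8% and 41.6% (centred) or 43.8% and 49.9% (count-based) for H3K14ac/H3, and from 66.7% and 27.3% to 50.5% and 42.3% or 43.9% and 49.8% for H4ac/H3. For H3K14ac/H4ac, 42.3% and 27.2% became 32.5% and 37.0% or 29.0% and 47.5%. The prt2 row, tested among genes, gave 1.21 ± 0.057 (SE) for H3K14ac/H3 (limma adjusted p = 5.69e-09) and 1.11 ± 0.057 for H4ac/H3 (limma adjusted p = 1.26e-08). Its H3K14ac/H4ac of 0.10 was not called (limma adjusted p = 0.136).

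Each upstream row was set against its gene in a fit over 6469 pairs of a gene and a noncoding row within 3000 nt upstream. SPNCRNA.1343 exceeded tgp1 by 2.08 ± 0.070 (SE) in log2 H3K14ac/H3 (limma adjusted p = 2.98e-07), by 1.45 in H4ac/H3 (limma adjusted p = 1.90e-06) and by 0.63 in H3K14ac/H4ac (limma adjusted p = 0.000616). The prt2 row exceeded pho84 by 1.65 ± 0.069 (SE, limma adjusted p = 8.09e-07), 1.07 (limma adjusted p = 7.93e-06) and 0.58 (limma adjusted p = 0.000757) in the same ratios, and 4.14% of its length was shared with pho84. It exceeded pho1, in whose upstream window it also lies, by 1.69, 1.04 and 0.64 (limma adjusted p = 5.77e-07, 7.17e-06 and 0.000439). There pho1 is the whole row, with 1319 nt outside the coding exon, and pho84 lies between the prt2 row and pho1. The upstream row was called higher in 68.3%, 66.1% and 42.4% of all pairs for H3K14ac/H3, H4ac/H3 and H3K14ac/H4ac. Below the tgp1 pair lay 84.8%, 74.8% and 94.1% of pairs, and below the pho84 pair 74.7%, 64.0% and 92.4%. Below the pair of the prt2 row and pho1 lay 75.7%, 63.0% and 94.7%. Centred on the median pair, the differences for SPNCRNA.1343 and tgp1 fell to 1.42, 0.92 and 0.50 and those for the prt2 row and pho84 to 0.99, 0.54 and 0.45, all still called. The shares of pairs called higher and lower were then 48.1% and 43.9%, 48.4% and 43.4%, and 28.3% and 35.8% for the 3 ratios, in place of 68.3% and 23.2%, 66.1% and 24.8%, and 42.4% and 19.8%. The 3 pairs with prt2 were added after SPBC8E4.02c had been recognised in the table.

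The genes on either side showed other combinations. fub2 (SPBP4G3.03), the next coding row after pho1 at 4000 nt, had H3 of 1.61 and 1.58 tags per nt, H3K14ac of 1.05 and 1.07 and H4ac of only 0.587 and 0.559. Its log2 H4ac/H3 was -1.46 (limma adjusted p = 3.29e-11), with 1.60% of genes below, and its H3K14ac/H3 was -0.59 (limma adjusted p = 1.45e-08). It lies at chrII:4453054-4454161, toward the end of a chromosome of 4539804 nt. On the other side of the locus, ecl3 (SPBC8E4.12c) had H3 of 1.32 and 1.20 tags per nt, H3K14ac of 2.32 and 2.24 and H4ac of 1.79 and 1.95. It was called higher in all 3 ratios, at 0.86 for H3K14ac/H3 (limma adjusted p = 3.69e-08), 0.57 for H4ac/H3 (limma adjusted p = 1.27e-06) and 0.29 for H3K14ac/H4ac (limma adjusted p = 0.000667). Of all genes, 47.4%, 47.1% and 32.9% were called higher in these ratios and 45.9%, 45.5% and 36.6% lower. The H3K14ac/H4ac of fub2, 0.87 (limma adjusted p = 8.01e-08), was exceeded by 26 genes, the opposite end of the distribution from pho1. Beside tgp1, SPBC1271.10c lay 315 nt from the tgp1 3′ end. It gave -0.43 for H3K14ac/H3 (limma adjusted p = 1.04e-06), -0.15 for H4ac/H3 (limma adjusted p = 0.00319) and -0.28 for H3K14ac/H4ac (limma adjusted p = 0.000127). SPBC1271.08c, 3610 nt away beyond the noncoding rows, gave 1.18, 1.26 and -0.08, of which the last was not called (limma adjusted p = 0.0641). The gene at the 3′ end of tgp1 was thus called lower in H3K14ac/H4ac as tgp1 was, a call made in 36.6% of all genes. Below SPBC1271.10c lay 7.41% of genes in this ratio, against 2.57% below tgp1. The differences between these genes were not tested.

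The genes whose 6 log2 densities were most like those of each member, by Euclidean distance over the 6 libraries, came from several chromosomes. For pho1 they were gas1, a cell wall glucan-modifying enzyme (distance 0.0903), tbp1, the TATA-binding protein (0.157), and pho841, another phosphate transporter (0.177). For pho84 they were gly1 (0.186), isp7 (0.213) and aat1 (0.232), and for tgp1 they were tsr401 (0.188), dcw1 (0.260) and cts2 (0.261). pho1 ranked 26th in likeness to pho84, and tgp1 was far from both, with pho84 and pho1 as its 4393rd and 4771st nearest genes. Likeness of levels was therefore greater between pho1 and pho84 than between either and tgp1. All 3 had a low ratio of H3K14ac to H4ac, but this was not particular to them. Log2 H3K14ac/H4ac was -0.51, -0.54 and -0.44 for gas1, tbp1 and pho841. It was -0.40, -0.30 and -0.33 for gly1, isp7 and aat1, and -0.29, -0.23 and -0.17 for tsr401, dcw1 and cts2. These nearest genes were picked on the same 6 densities that give the ratio.

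Finally, 26 other genes of phosphate homeostasis were read from the same gene fit. They comprise the activator Pho7 and the kinase Csk1, enzymes and SPX-domain proteins of inositol pyrophosphate signalling, 3′ end processing factors that terminate the upstream RNAs, RNA surveillance factors such as Mmi1, and phosphatases, a transporter and a polyphosphate polymerase subunit. H3K14ac/H3 was called lower in 17 and higher in 7 of the 26, beside 45.9% and 47.4% of all genes, with a median of -0.43 against 0.01 over all genes. H4ac/H3 was called lower in 14 and higher in 10, beside 45.5% and 47.1% of all genes, with a median of -0.34 against 0.0075. The extremes of both were kcs1, an inositol hexakisphosphate kinase (-1.56 and -1.31), and ssu72, a phosphatase of the RNA polymerase II C-terminal domain (1.60 and 1.495). pho7 gave -1.16 and -1.11.

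In H3K14ac/H4ac, most of this list lay above the 3 genes. It was called lower in 10 and higher in 7 of 26, shares close to those of all genes (36.6% and 32.9%), with a median of -0.049 against -0.011 over all genes. seb1, a termination factor, was lowest at -0.57 (limma adjusted p = 2.34e-07), followed by pqr1, an SPX-domain protein, at -0.45 (limma adjusted p = 1.54e-06) and pho842, a phosphate transporter, at -0.40 (limma adjusted p = 9.49e-06). erh1, a partner of Mmi1, was highest at 0.56 (limma adjusted p = 2.40e-07). Of the 26, 1 was lower than pho1, 1 lower than pho84 and 2 lower than tgp1. No set test was made.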

How the data were processed

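The authors mapped the reads uniquely with Bowtie2 to assembly ASM294v2 and deposited a signal, the tag density in tags per nt of each annotated row. Density times length came out in whole steps for every row (tolerance 0.01), so each library had been multiplied by 1 factor. How a tag is assigned to a row is not given in the sources used here. In every library the 2 tgp1 exons together held more tags than the tgp1 row that contains them. A tag can therefore count in more than 1 row. Of the 8 libraries in the labels, 6 were analysed; the 2 Input libraries were not, and the 3 columns that pool replicates were not used.

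Densities were analysed with limma 3.58.1 in R 4.3.3 (lmFit, eBayes with a trend) on log2(density + 0.01), with 1 mean per antibody, a spread shared by the 3 antibodies and Benjamini-Hochberg adjustment at 0.05 over all rows that reached 0.05 tags per nt in 2 or more libraries. Fold changes are on that scale, which understates changes of low rows. Separate fits covered genes, noncoding rows, coding exons, pairs of upstream row and gene, and the part of a gene row outside its coding exon minus the coding exon (at least 300 nt outside). The test was tried on simulated data. A count model was planned as the main fit should the table hold counts. The unit is a density, so it was not the main fit. A count-based fit on tags recovered from the densities was run as an alternative. With 2 replicates per antibody, p-values measure the spread between these libraries, and intervals cover that spread only.

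The members, the phosphate list (28 symbols, of which 26 genes were found, 2 symbols naming 1 gene) and the tests were chosen with earlier results of these data known. Text names the 3 genes, noncoding rows within 3000 nt upstream, flanking coding genes, the 3 genes nearest in level to each member and the extremes of the phosphate list. The prt2 row, pho7, pqr1 and pho842 were named after their values were seen. Of 5129 gene identifiers, 5114 were found in RefSeq (ASM294v3). Chromosome II coding exons had identical coordinates there in 3699 of 3753 cases (98.6%), and sequences were read from that assembly. Alternatives were other pseudocounts, no filter, median centring, nuclear chromosomes, a count-based fit, a replicate block, each library left out, coding exons and a 1.5-fold minimum.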

Additional observations from a re-analysis of the deposited data

How the results depend on the processing

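Of 33 log2 ratios and differences of the members, 28 kept their direction and side of the threshold under each alternative run, as did 435 of 447 alternative values. A minimum of 1.5-fold lowered the share of genes called in either direction from 93.3% to 45.2% for H3K14ac/H3, from 92.6% to 41.5% for H4ac/H3 and from 69.5% to 2.46% for H3K14ac/H4ac, and for H3K14ac/H4ac from 69.6% to 9.02% of noncoding rows and from 62.2% to 10.2% of pairs. H4ac/H3 changed direction or call in all 3 genes. For pho84 it was -0.022 without H3 replicate 2 (range 0.091 to -0.022 over libraries left out) and -0.10 in the coding exon. For pho1 the coding exon gave -0.41. For tgp1 it ranged from 0.060 to 0.139 over libraries left out and was 0.11, not called, in the coding exon (adjusted p = 0.0778, limma). Among other values, H3K14ac/H4ac of SPNCRNA.1343 was not called in the count-based fit (0.072), and that of the prt2 row was called there (0.12) and without the filter (adjusted p = 0.0460, limma). Over genes of 1 to 3 kb, 20.7% and 29.4% lay below pho1 and tgp1 in H3K14ac/H3, and 0.910% below pho1 in H3K14ac/H4ac. The larger moves in size under median centring of noncoding rows, pairs and row parts are given with those results; there each library is centred on the rows of that fit, which by construction takes out their median. The other causes were not tested. The planned TMM scaling of the count-based fit was replaced by library medians.

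Differences between replicates 1 and 2 correlated across 5129 genes with r of 0.018 (H3 and H3K14ac), 0.0006 (H3 and H4ac) and 0.142 (H3K14ac and H4ac). Such values cannot show whether libraries with the same replicate number came from the same culture, which the labels do not state. The main fit used no pairing, and a replicate block was run as an alternative. With the replicate block, 33 of 33 results kept their side, and 93.3%, 92.7% and 69.6% of genes were called for H3K14ac/H3, H4ac/H3 and H3K14ac/H4ac.

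The 2 replicates per antibody limit what can be said of single ratios. The H3K14ac and H4ac signals over noncoding rows rest on H3 densities that were low, where background without Input could not be assessed, and H4 itself was not measured.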
